A study of Mus musculus with 904 samples.

Results

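The genes described here are 6 receptors for dopamine and adenosine, Drd1, Drd2, Drd3, Drd5, Adora1 and Adora2a, out of 32285 genes in the table. They were chosen by name, with earlier results of these data known. All 6 had reads in at least 1 of the 835 nuclei kept. Nuclei with reads numbered 191 for Drd1, 134 for Adora1, 114 for Drd2, 60 for Adora2a and 6 each for Drd3 and Drd5.

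Dopamine receptors are G protein-coupled receptors of 2 families. Drd1 and Drd5 couple to the stimulatory G proteins Gs and Golf and raise cyclic AMP, whereas Drd2 and Drd3 couple to inhibitory Gi/o proteins and lower it. Of the adenosine receptors, Adora1 couples to Gi/o and Adora2a to Gs and Golf. In the striatum, projection neurons of the direct pathway are known for Drd1 and those of the indirect pathway for Drd2 together with Adora2a, while Adora1 is broadly distributed in forebrain neurons.

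Single nuclei were sorted from the brains of C57Bl/6J mice that had received adeno-associated virus of the PHP.eB capsid in young adulthood at 5e11 vg per mouse. Titles label the nuclei YFP+, also those of the construct dTomato-H2B, whose name holds no YFP. Nuclei were taken 3 to 4 weeks later, and RNA of each was amplified with SMART-Seq v4, a whole-transcript method without molecular identifiers. All vectors share the DLX2.0 enhancer, which is active in forebrain GABAergic neurons, in front of a fluorescent reporter and a form of the histone H2B. In the constructs with P2A, that peptide stands between SYFP2 and 3XFLAG-H2B. There is no uninjected group, and no label names an animal.

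Titles name 16 constructs. Those that belong to no pair with the same element before and after SYFP2-H2B are dTomato-H2B, SYFP2-P2A-3XFLAG-H2B, the same with SIRLOIN at its end, and SYFP2-10aa-H2Bmod-BC. The other 12 place BORG, 3xBORG, U7snRNAOPT, U7snRNAOPT-3'box, 3xU7snRNAOPT or 3xsmOPT either before or after SYFP2-H2B, with BC at the end. A construct, as named in the title, was taken as the sample, and reads were summed per construct and class of nuclei. The p-values therefore measure only the spread between such sums, which may be technical. A separate treatment label gives 16 vector codes that do not map 1 to 1 to the titles: each construct title carries 4 to 5 codes, and each code 3 to 9 constructs. Results were therefore also computed with the code in place of the construct.

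Kept nuclei had 30023 to 719419 reads assigned to genes (median 260274) and a median of 2789 genes. Expression thresholds put 626 nuclei in a single class: 214 striatal projection, 134 excitatory, 114 Sst, 92 Pvalb, 37 Mog and 35 Aqp4 nuclei. Another 92 met several classes and 117 met none. The sample labels place every nucleus in primary visual cortex, whereas the description of the series also names anterior lateral motor cortex and striatum. The striatal projection class carried its markers: 10 of 10, among them Ppp1r1b, Pde10a and Adcy5, were detected in at least 25% of its nuclei, at a median summed level of 8608 CPM (gene reads scaled to equal totals of all gene reads) against 467 in Sst, 365 in Pvalb and 763 in excitatory nuclei. Excitatory markers were at a median of 0 CPM in that class, and Neurod2, Neurod6, Emx1 and Nrn1 were at 0 reads. Rgs9 is among the 10 markers and Slc17a7 among the excitatory markers. The class rule sets limits on both, so neither is an independent sign of the class. Library pool S40317 held 0 of the 214 striatal projection nuclei, pool S40325 141 and pool S40327 73.

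Drd1, the stimulatory dopamine receptor (chromosome 13, 54051183 to 54055705 in mm10, minus strand), had reads in 115 of 214 striatal projection nuclei, 53.7% (exact Clopper-Pearson 95% interval 46.8 to 60.6, which covers counting error only and takes nuclei as independent). It was also detected in 19.3% of Sst nuclei (12.5 to 27.7), in 21.7% of Pvalb nuclei (13.8 to 31.6) and in 6.72% of excitatory nuclei (3.12 to 12.4). Among striatal projection nuclei with reads, the median level was 663 CPM and the range 4.196 to 3062. Drd1 had reads in 1 of 35 Aqp4 nuclei and in 0 of 37 Mog nuclei, which allows a share of up to 8.11%. The 280 bases around its first annotated start site (RefSeq, GRCm38.p6, minus strand, chr13:54055629-54055908, 250 bases before the start and 30 from it) are shown because Drd1 and Drd2 divide the striatal projection nuclei below. Capitals mark the GC box GGGCGG on either strand.

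Drd1: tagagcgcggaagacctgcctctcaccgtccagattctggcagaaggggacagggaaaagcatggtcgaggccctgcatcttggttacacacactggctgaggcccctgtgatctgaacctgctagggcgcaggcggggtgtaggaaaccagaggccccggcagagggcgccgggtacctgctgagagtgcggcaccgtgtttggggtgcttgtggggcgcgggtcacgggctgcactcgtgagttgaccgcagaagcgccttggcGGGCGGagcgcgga

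Drd2: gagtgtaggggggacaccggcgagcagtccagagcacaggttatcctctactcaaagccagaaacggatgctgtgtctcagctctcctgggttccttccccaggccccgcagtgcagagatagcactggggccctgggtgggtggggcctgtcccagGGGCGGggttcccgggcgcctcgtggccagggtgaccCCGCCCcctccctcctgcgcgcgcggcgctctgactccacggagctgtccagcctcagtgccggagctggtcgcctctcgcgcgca

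The second sequence is that of Drd2 (chr9:49340153-49340432, plus strand). The Drd1 window held 1 GC box, 16 bases after the start site, with 65.4% G and C and 21 CpG, and that of Drd2 held 2, at 93 and 56 bases before it, with 69.3% and 20 CpG. A GC box occurred in 34.7% of 32851 promoter windows of that length. Neither window held TATAAA (13.1% of all windows) or TGACGTCA (1.74%), the letters searched for a TATA box and a cyclic AMP response element. Of the 6 genes, 5 had windows in the RefSeq table. Drd5 held 2 GC boxes and the upstream Adora1 window 3, Drd3 held none at 41.1% G and C, and none of the 5 genes had a TATA box or cyclic AMP element there. All windows had a median of 52.5% G and C.

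Summed per construct, Drd1 ranged from 0 over a median of 371 to 1425 CPM in striatal projection nuclei (444 ± 368, SD, n = 12 constructs with at least 5 such nuclei). It ranged from 0 over 47 to 293 CPM in Sst nuclei (72 ± 87.5, n = 12), from 0 over 24.3 to 96.7 CPM in Pvalb nuclei (41.8 ± 37.6, n = 9) and from 0 over 0 to 356 CPM in excitatory nuclei (45 ± 99.9, n = 13). Striatal projection sums lay above the highest Sst sum in 9 of 12 constructs, and overlap came from 3xsmOPT-SYFP2-H2B-BC at 0 CPM, U7snRNAOPT-SYFP2-H2B-BC at 68.8 CPM and SYFP2-H2B-3xsmOPT-BC at 247 CPM. They lay above the highest Pvalb sum in 10 of 12 constructs, and above the highest excitatory sum, 356 CPM, in only 6 of 12. Over whole classes, Drd1 was 4.75 times the Sst level, 9.10 times the Pvalb level and 13.3 times the excitatory level.

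Drd2, the inhibitory dopamine receptor (chromosome 9, 49340627 to 49408177, plus strand), was rarely detected in the other 5 classes. It had reads in 75 of 214 striatal projection nuclei, 35.05% (28.7 to 41.8), in 3 of 114 Sst nuclei with 5 reads in all, in 0 of 92 Pvalb nuclei (up to 3.26%) and in 3 of 134 excitatory nuclei. Per construct it ranged from 0 over 89.2 to 266 CPM in striatal projection nuclei (101 ± 79.1, n = 12), whereas no Sst sum exceeded 0.667 CPM. In 11 of 12 constructs the striatal projection sum was above every Sst and Pvalb sum, and the exception, BORG-SYFP2-H2B-BC, had 0 Drd2 reads in 6 nuclei. Outside the 6 classes it was found in 21 nuclei of no class and 8 of several. The class level was 744 times that of Sst nuclei, 50.4 times that of excitatory nuclei (518 times without the 1 nucleus that held 90.4% of their 83 reads, a value added after seeing the data) and at least 1007-fold higher than in Pvalb nuclei, with 3 counts set for 0 reads. In Mog nuclei Drd2 had reads in 3 of 37, and a single nucleus held 94.6% of them.

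Adora2a, the stimulatory adenosine receptor (chromosome 10, 75316877 to 75334784, plus strand), was, like Drd2, found mainly in striatal projection nuclei. In the 117 nuclei of no class the 2 parted, with Adora2a reads in 1 and Drd2 reads in 21. Of 214 striatal projection nuclei 49 had reads, 22.9% (17.4 to 29.1), against 1 of 114 Sst, 0 of 92 Pvalb, 1 of 134 excitatory, 0 of 35 Aqp4 and 0 of 37 Mog nuclei. Per construct it ranged from 0 over 23.3 to 93.9 CPM in striatal projection nuclei (40.6 ± 38.8, n = 12). Of the 12 sums, 7 were above the highest Sst sum, 16.6 CPM, which came from 1 nucleus. Both constructs at 0 CPM, BORG-SYFP2-H2B-BC and 3xU7snRNAOPT-SYFP2-H2B-BC, were also among the 3 lowest in Drd2. The class level was 43.2 times that of Sst nuclei (32 reads), 130 times that of excitatory nuclei (12 reads), where the reads of either class came from a single nucleus, without which it was at least 456-fold and at least 512-fold higher, and at least 374-fold higher than in Pvalb nuclei.

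**Figure D1:**
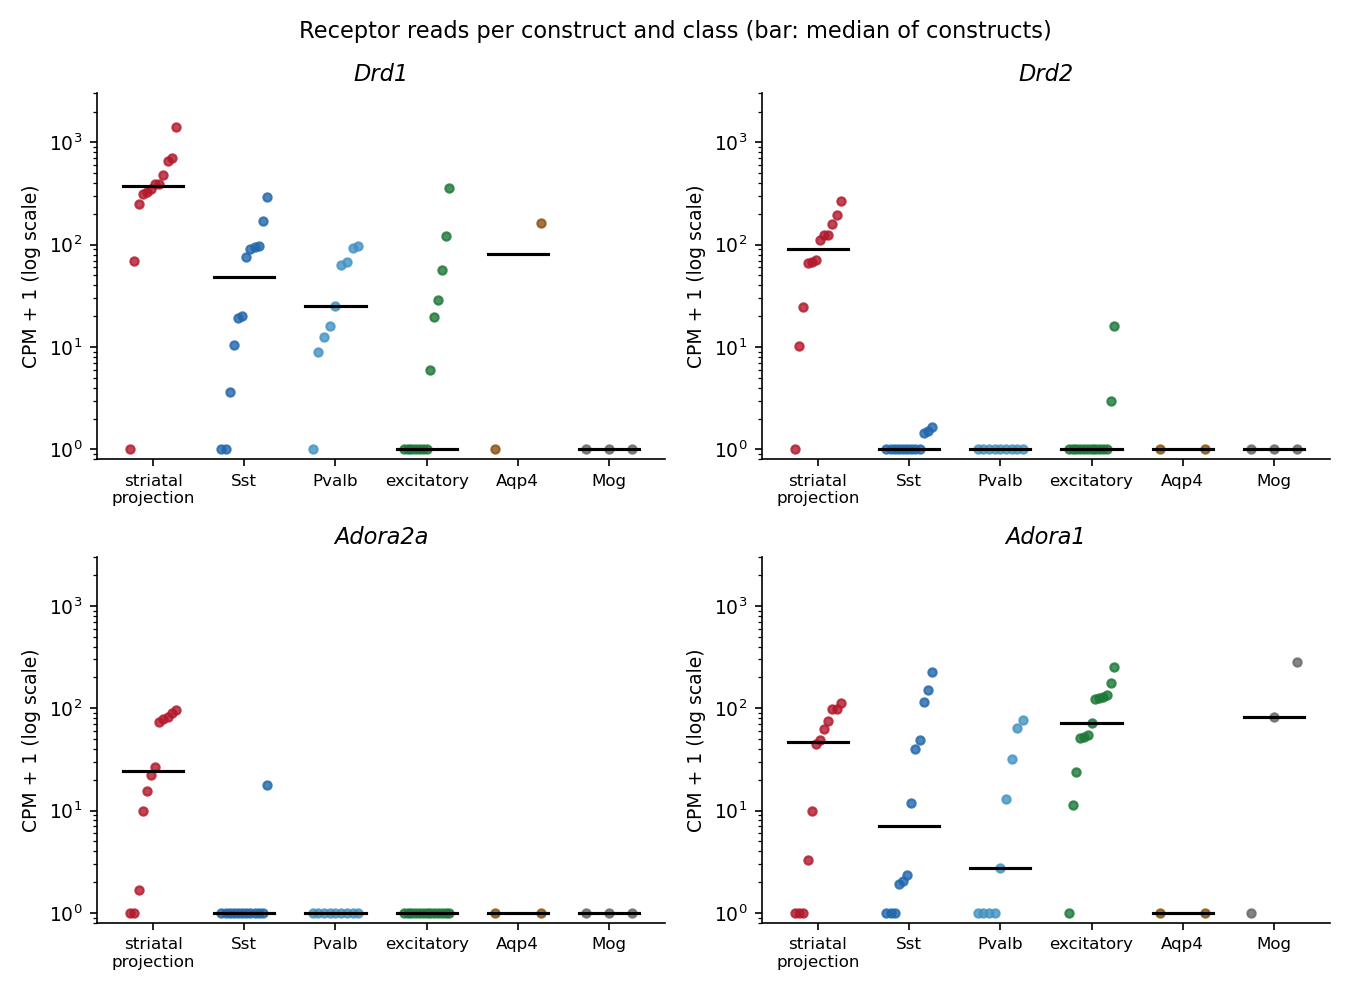
CPM + 1 on a log axis for Drd1, Drd2, Adora2a and Adora1 in each sum of 1 construct and 1 class with at least 5 nuclei (points), with the median of the constructs as a bar. Outside the striatal projection nuclei Drd2 reaches 15.1 CPM (excitatory) and Adora2a 16.6 CPM (Sst), each in 1 sum. Drd1 reaches 356 CPM in excitatory and 293 CPM in Sst nuclei. The Adora1 median is 71.4 CPM in excitatory nuclei and 81.3 CPM in the 3 Mog sums.

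Differences between classes were tested by the quasi-likelihood F test of edgeR on 51 sums (12 striatal projection, 12 Sst, 9 Pvalb, 13 excitatory, 2 Aqp4 and 3 Mog), with construct as a block and Benjamini-Hochberg adjustment over 16480 genes. The genes that define the classes were left out. Set against the equally weighted mean of the other 5 classes, 16.5% of all genes were called, 16% higher and 0.492% lower, and 3 of the 6 receptors were called higher. The log2 fold change was 9.93 ± 1.49 (SE) for Drd2 (adjusted p = 8.34e-07), 9.03 ± 1.93 for Adora2a (adjusted p = 0.000505) and 6.69 ± 1.505 for Drd1 (adjusted p = 0.000683), against a median of 1.129 over all genes. Drd2 and Adora2a had 0 reads in every Aqp4 and Mog sum, and Drd1 in every Mog sum. The fitted fold changes of these receptors therefore depend on the prior count and are no bound. Drd2 and Adora2a also had 0 reads in every Pvalb sum, and Adora2a in every excitatory sum. The same limit holds for each contrast below that includes such sums.

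With the mean taken over Sst, Pvalb and excitatory nuclei alone, a contrast added after the data were seen, the median of all genes was 0.03 and 6.74% of genes were called, 4.38% higher and 2.35% lower. Drd2 was then at 9.86 ± 1.30 (adjusted p = 1.01e-07), Adora2a at 8.91 ± 1.49 (adjusted p = 2.59e-05) and Drd1 at 4.67 ± 0.999 (adjusted p = 0.000731). Adora1 passed neither contrast, at 2.18 ± 1.28 (adjusted p = 0.276) and 0.29 ± 1.25 (adjusted p = 1). Drd3 gave no usable test against all 5 classes and was at 1.63 ± 1.02 against the neurons (adjusted p = 0.472). Drd5 did not pass the filter on low counts.

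Against single classes, the same receptors were separated to different degrees. Against Sst nuclei 5.53% of genes were called (3.14% higher and 2.40% lower), and with them Drd2 (9.55 ± 1.82, adjusted p = 0.000218), Adora2a (7.41 ± 2.13, adjusted p = 0.0246) and Drd1 (4.22 ± 1.30, adjusted p = 0.0362). Against excitatory nuclei, where 3.07% were called (1.06% higher and 2.01% lower), the values were 8.17 ± 1.79 for Drd2 (adjusted p = 0.00276), 9.58 ± 2.17 for Adora2a (adjusted p = 0.00454) and 6.12 ± 1.26 for Drd1 (adjusted p = 0.000981). Against Pvalb nuclei, where 4.76% were called (2.88% higher and 1.88% lower), Drd2 (adjusted p = 0.000398) and Adora2a (adjusted p = 0.0162) passed, and Drd1 did not, at 3.68 ± 1.38 (adjusted p = 0.126). Against Mog nuclei, where 14.5% were called (13% higher and 1.56% lower), Drd1 passed (adjusted p = 0.000565, at least 1737-fold higher over the class), and against the 2 Aqp4 sums, where 7.15% were called (7.10% higher and 0.0546% lower), no receptor passed. All these contrasts share the striatal projection sums.

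Drd2 passed against both means under every alternative that gave a value. Against both means, Drd2 and Adora2a gave no value within pool S40327 or without pool S40325, which held 141 of the 214 striatal projection nuclei. Against the 5 classes, Drd1 also gave none without pool S40325. Drd1, Drd2 and Adora2a gave none there without SYFP2-H2B-3xsmOPT-BC, and Adora2a none without SYFP2-H2B-U7snRNAOPT-3'box-BC. Adora2a missed the threshold against the mean of the 5 classes with DESeq2 (adjusted p = 0.0982, and 0.108 against the 3 neuron classes), without pool S40327 (edgeR adjusted p = 0.0799), with at least 10 nuclei per sum (edgeR adjusted p = 0.116) and within pool S40325 (edgeR adjusted p = 0.0694), and Drd1 in the last 2 of these settings (edgeR adjusted p = 0.051 and 0.05). In the last 3 of these settings no Aqp4 or Mog sum was left, so the losses hold for both means. Against the neurons Drd1 was also not called without pool S40325 (3.71, edgeR adjusted p = 0.0914) or within pool S40327 (edgeR adjusted p = 0.334). The calls of Drd2 against Sst, Pvalb and excitatory nuclei, of Drd1 against excitatory and Mog nuclei and of Adora2a against excitatory nuclei were kept without any 1 construct, and the other 3 calls were not. For Drd1 against Sst nuclei the call was lost without dTomato-H2B, SYFP2-H2B-3xBORG-BC, SYFP2-H2B-U7snRNAOPT-3'box-BC, SYFP2-H2B-U7snRNAOPT-BC or SYFP2-P2A-3XFLAG-H2B-SIRLOIN (edgeR adjusted p 0.0528 to 0.0943). For Adora2a it was lost against Sst nuclei without 3xsmOPT-SYFP2-H2B-BC, dTomato-H2B, SYFP2-10aa-H2Bmod-BC, SYFP2-H2B-U7snRNAOPT-3'box-BC or SYFP2-P2A-3XFLAG-H2B-SIRLOIN (edgeR adjusted p 0.0509 to 0.0741), and against Pvalb nuclei without 3xsmOPT-SYFP2-H2B-BC, dTomato-H2B, SYFP2-P2A-3XFLAG-H2B or SYFP2-P2A-3XFLAG-H2B-SIRLOIN (edgeR adjusted p 0.0501 to 0.0877). The Drd1 call against Sst nuclei was also lost with doubled class thresholds (edgeR adjusted p = 0.128), with at least 3 or 10 nuclei per sum (edgeR adjusted p = 0.152 and 1), without pool S40317 (edgeR adjusted p = 0.242) and in 6 other settings. Without pool S40317, Drd1, Drd2 and Adora2a lost their calls against excitatory nuclei (edgeR adjusted p = 0.392, 0.196 and 0.16). Within single pools, calls against single classes were lost for all 3 receptors, and Drd1 against excitatory nuclei turned to -0.71 ± 1.80 within pool S40327 (edgeR adjusted p = 1). Drd1 against Pvalb nuclei passed without 3xBORG-SYFP2-H2B-BC (edgeR adjusted p = 0.0159) or SYFP2-H2B-3xsmOPT-BC (edgeR adjusted p = 0.0171), without pool S40317 (0.029), without the low-count filter (0.00291), with no construct term (0.0335) and with the newer dispersion fit of edgeR (0.00642).

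Adora1, the inhibitory adenosine receptor (chromosome 1, 134199223 to 134235431, minus strand, where it overlaps Mybph on the opposite strand), was the receptor found most often outside striatal projection nuclei. It had reads in 52 of 134 excitatory nuclei, 38.8% (30.5 to 47.6), in 15.9% of striatal projection nuclei (11.3 to 21.5), in 10.5% of Sst nuclei (5.56 to 17.7) and in 6.52% of Pvalb nuclei (2.43 to 13.7). It also had reads in 2 of 35 Aqp4 and 4 of 37 Mog nuclei. The kit's strand use is not given in the sources used here, so reads of Mybph could count for Adora1.

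Per construct, Adora1 ranged from 0 over 71.4 to 253 CPM in excitatory nuclei (92 ± 72.4, n = 13), from 0 over 45.8 to 112 CPM in striatal projection nuclei (45.4 ± 42.9, n = 12), from 0 over 6.09 to 224 CPM in Sst nuclei (49 ± 74.1, n = 12) and from 0 over 1.77 to 76.3 CPM in Pvalb nuclei (20.5 ± 29.9, n = 9). All 4 ranges overlap. In the order excitatory, striatal projection, Sst, Pvalb, no tested pair passed: striatal projection against excitatory nuclei was at -1.77 ± 1.42 (adjusted p = 0.713), against Sst at 0.22 ± 1.47 (adjusted p = 0.998) and against Pvalb at 2.42 ± 1.74 (adjusted p = 0.585). Excitatory against Pvalb nuclei was at 4.19 ± 1.69 (adjusted p = 0.216, with 2.91% of genes called, 2.15% higher and 0.758% lower) and against Sst nuclei at 1.99 ± 1.49 (adjusted p = 0.666, with 3.05% called, 2.11% higher and 0.947% lower). Excitatory against Pvalb nuclei passed with DESeq2 (4.28, adjusted p = 0.016) and with at least 3 nuclei per sum (5.79, edgeR adjusted p = 0.0398), and turned to -5.64 within pool S40327 (edgeR adjusted p = 1). Sst against Pvalb nuclei was at 2.20 ± 1.72 (adjusted p = 0.949, with 0.461% called, 0.334% higher and 0.127% lower).

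The detection of Adora1 in excitatory nuclei varied between library pools. It was 61.1% (46.9 to 74.1) of 54 nuclei in pool S40317, 21.3% (10.7 to 35.7) of 47 in pool S40325 and 27.3% (13.3 to 45.5) of 33 in pool S40327. Striatal projection nuclei were at 17% (11.2 to 24.3) in pool S40325 and 13.7% (6.77 to 23.8) in pool S40327, and pool S40317 had none of them. The class shares of all pools together are therefore not from the same pools.

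Within the excitatory class, nuclei with at least 20 CPM of Foxp2, a deep-layer gene, and less of Cux2 were set against those with the reverse, Cux2 being a gene of superficial layers. Adora1 had reads in 12 of 25 Foxp2 nuclei, 48% (27.8 to 68.7), and in 12 of 35 Cux2 nuclei, 34.3% (19.1 to 52.2), with class levels of 244 and 60.05 CPM. Drd1 had reads in 4 of 25 and 2 of 35. No receptor passed the low-count filter in the test over 9 constructs, which called 0.115% of 4361 genes, 0.0459% higher with Foxp2 and 0.0688% lower. Without that filter Adora1 was at 2.64 ± 2.001 and Drd1 at 4.31 ± 2.13, both with an adjusted p of 1 by edgeR. Each sum there holds as few as 1 nucleus, since no construct had 3 of both kinds.

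The Gs-coupled Drd5 (chromosome 5, 38319367 to 38322518, plus strand, with the antisense gene Gm26560 on the opposite strand) was not detected in striatal projection nuclei, where 0 of 214 allows a share of up to 1.40%. Its 6 nuclei with reads had 6 to 20 reads each, 1 excitatory, 1 Mog and 4 of no class. In 5 of the 6, reads of Chat, which makes acetylcholine, and of Slc5a7, the choline transporter, were also present.

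The nuclei of no class gave more values for the receptors. Of these 117 nuclei 18 had Chat reads, and all 18 had Slc5a7 reads as well. Drd2 had reads in 13 of the 18, 72.2% (46.5 to 90.3), and in 8 of the 99 without Chat, 8.08% (3.55 to 15.3). Drd5 had reads in 4 of the 18, 22.2% (6.41 to 47.6), and in 0 of the 99, which allows up to 3.03%. Adora2a had reads in 0 of the 18, which allows up to 16.7%, and Drd1 in 1. With 2 markers the nuclei with Chat are not given a cell type name. They were chosen after the values were seen, no test was made, and they come from 9 constructs.

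**Figure D2:**
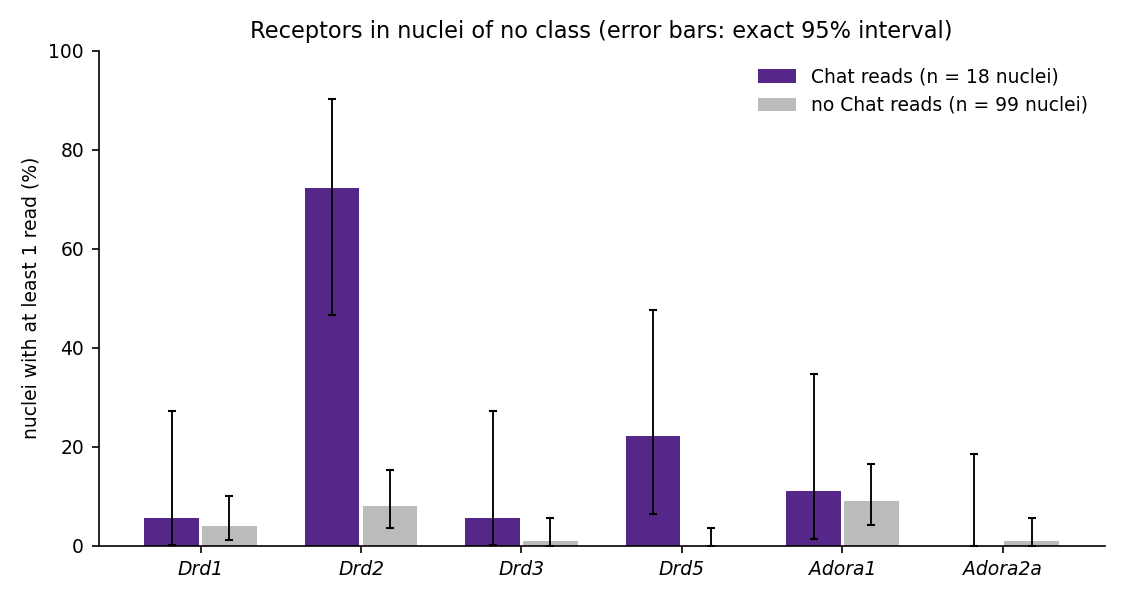
Percent of nuclei of no class with at least 1 read of each receptor, for the 18 with Chat reads and the 99 without, with exact 95% intervals. Drd2 is at 72.2% against 8.08% and Drd5 at 22.2% against 0.

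Drd3 (chromosome 16, 43754026 to 43822932, plus strand), which couples to Gi/o like Drd2, had reads in 3 striatal projection nuclei, 1.40% (0.290 to 4.04), with 58.3, 77.7 and 124 CPM. All 3 had Drd1 reads and none had Drd2 reads. The other 3 nuclei with Drd3 reads were 2 of no class and 1 of several classes. Of the remaining receptors of both families, Drd4 had reads in 2 nuclei and Adora3, which overlaps Tmigd3 on the same strand, in 3. Adora2b had reads in 14, of which 7 were among the 35 Aqp4 nuclei, 20% (8.44 to 36.9), at 151 to 1637 CPM.

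Drd1 and Drd2 were seldom found in the same striatal projection nucleus. Of the 214 nuclei, 109 had Drd1 reads alone, 69 had Drd2 reads alone, 30 had neither and 6 had both. Nuclei with both were 3.26% (1.21 to 6.96) of the 184 with either. If the shares of both receptors were multiplied, 40.3 of 214 nuclei would hold both. The share was 1.56% to 4.17% under 9 other settings, among them at least 3 reads, at least 10 CPM, 100000 reads drawn from each nucleus, and each pool alone, all within the interval above.

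The 6 nuclei with both came from 4 constructs. Their reads of Drd1 and Drd2 were 6 and 17, 9 and 183, 13 and 113, 106 and 12, 425 and 6, and 880 and 47. In 5 of the 6, the larger count was more than 5 times the smaller. The nucleus with 6 and 17 reads had 9806 genes detected, against a median of 2558 in nuclei with Drd1 alone. Whether any of them held RNA of more than 1 nucleus was not tested.

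**Figure D3:**
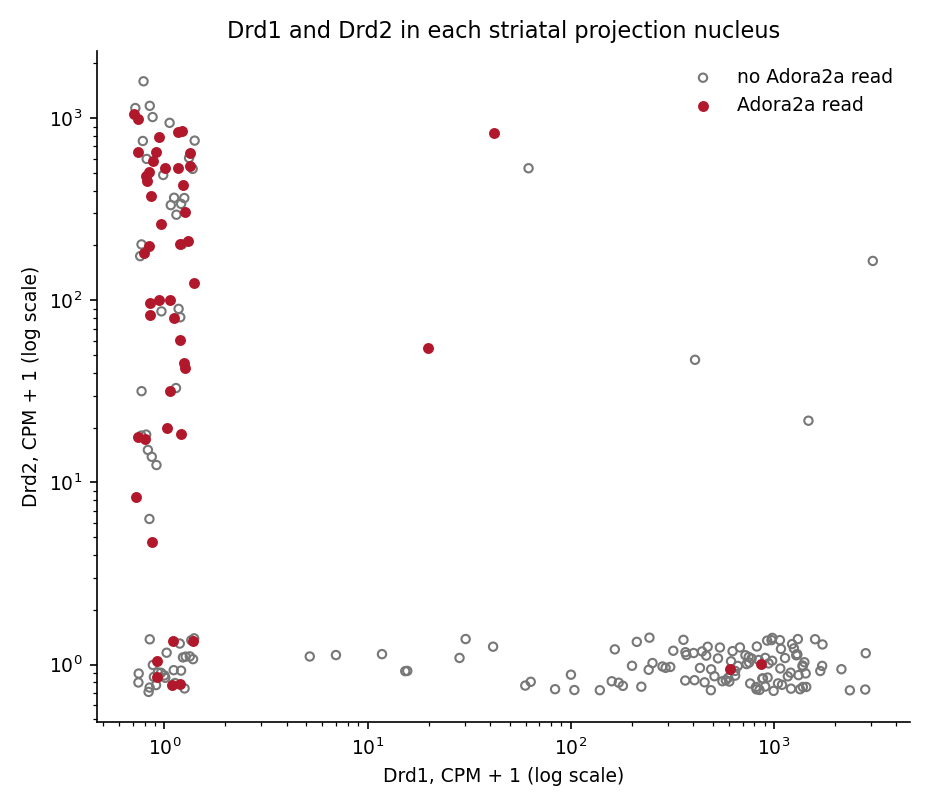
Drd1 against Drd2 in each of the 214 striatal projection nuclei, as CPM + 1 on log axes, with points at 0 spread around 1. Filled points have Adora2a reads. The points lie along both axes, 6 nuclei have reads of both, and the filled points lie mostly along the Drd2 axis.

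The adenosine receptors divided differently between these nuclei. Adora2a had reads in 39 of 69 nuclei with Drd2 alone, 56.5% (44.04 to 68.4), in 2 of 109 with Drd1 alone, 1.83% (0.223 to 6.47), and in 6 of 30 with neither, 20% (7.71 to 38.6). Adora1 had reads in 17.4% (10.8 to 25.9), 14.5% (7.17 to 25.04) and 10% (2.11 to 26.5) of nuclei with Drd1 alone, Drd2 alone and neither. Adora2a and Drd2 shared 41 nuclei where the product of their shares gives 17.2, and Adora2a and Drd1 shared 4 where it gives 26.3. Adora1 shared 21 with Drd1, 12 with Drd2 and 6 with Adora2a, where the products give 18.3, 11.9 and 7.79. Depth was alike, with a median of 264117 reads in nuclei with Drd1 alone and 257190 in those with Drd2 alone.

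Other genes known for either pathway, from a list chosen by name, divided along the same line. Tac1, the precursor of substance P, had reads in 91.7% of nuclei with Drd1 alone and 11.6% of those with Drd2 alone. The transcription factor gene Ebf1 was at 64.2% and 4.35%, and Slc35d3, which has a role in the trafficking of Drd1, at 40.4% and 0. Penk, the precursor of enkephalins, was at 33.9% and 97.1%, the orphan receptor gene Gpr6 at 3.67% and 72.5%, and Gucy1a1, a subunit of soluble guanylyl cyclase, at 31.2% and 60.9%. Nuclei with neither receptor lay between, with Tac1 in 46.7% and Penk in 56.7%.

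**Figure D4:**
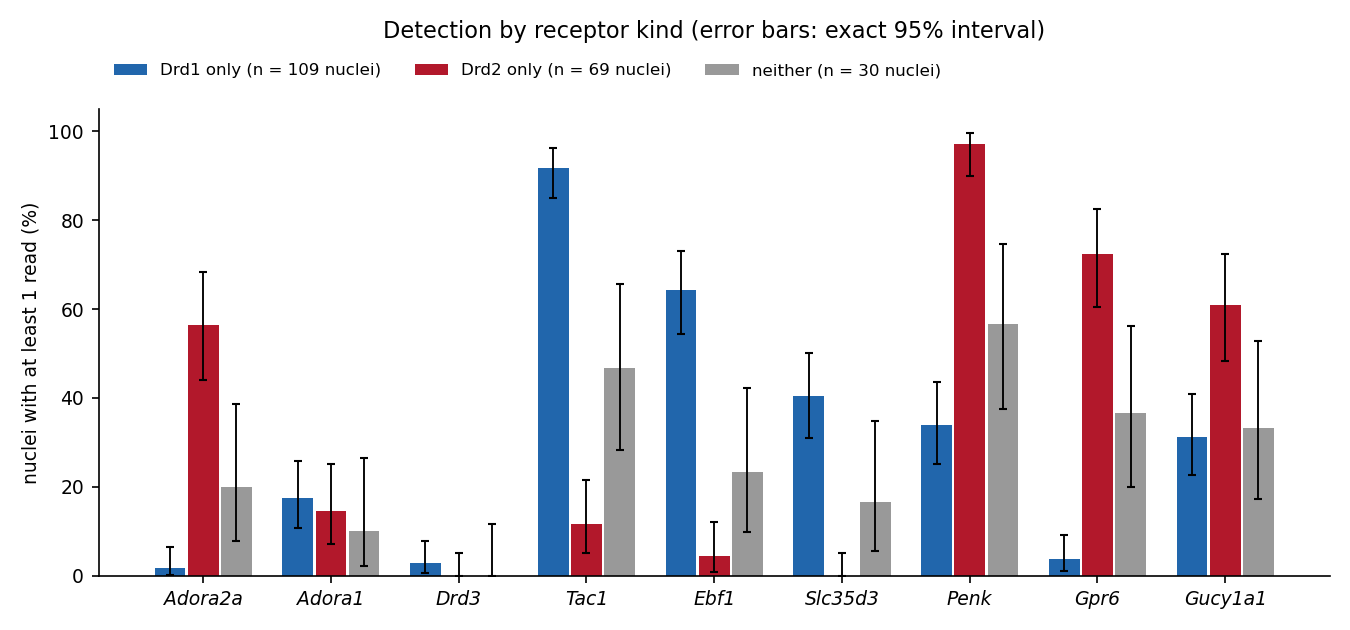
Percent of striatal projection nuclei with at least 1 read of each gene, for the 109 nuclei with Drd1 alone, the 69 with Drd2 alone and the 30 with neither, with exact 95% intervals. Adora2a, Penk and Gpr6 are higher with Drd2, Tac1, Ebf1 and Slc35d3 are higher with Drd1, and the Adora1 intervals overlap.

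The same 2 kinds of nuclei were compared over sums in the 5 constructs with at least 3 nuclei of both, with Drd1 and Drd2 left out because they chose the nuclei. Adora2a had 0 reads in all 5 sums with Drd1 alone, and 0, 61, 115, 160 and 196 CPM in the sums with Drd2 alone. The groups met at 0 in SYFP2-H2B-U7snRNAOPT-BC, where 4 nuclei had Drd2 alone. With so many sums at 0, Adora2a did not pass the low-count filter. Without the filter it was called lower with Drd1 alone (edgeR adjusted p = 0.00276, 17 of 16252 genes called). In the other fits that held it, its adjusted p ran from 0.132 to 0.734.

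Adora1 did not differ beyond its spread. It was at 0, 53.2, 74.2, 95.8 and 101 CPM with Drd1 alone and at 0, 26.6, 27.3, 38.4 and 185 CPM with Drd2 alone, higher with Drd1 alone in 3 of 5 constructs. Its log2 fold change was 0.58 ± 2.12 (edgeR adjusted p = 1).

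Of 8783 genes, 3 were called in that comparison, 0.0342% (0.0114% higher with Drd1 alone and 0.0228% lower), with 221 at an unadjusted p under 0.05, and 253 by DESeq2. Penk was at 126, 190, 282, 443 and 643 CPM with Drd1 alone and at 3862, 4447, 8885, 9653 and 10435 CPM with Drd2 alone, without overlap. It was 30.8-fold higher with Drd2 alone (log2 fold change -4.54 ± 0.42, edgeR adjusted p = 0.000849). Lingo2, a leucine-rich repeat membrane protein of neurons, had 5123 reads with Drd1 alone and 0 with Drd2 alone. Over the joined reads of all constructs it was at least 1075-fold higher with Drd1 alone, with the same direction in 5 of 5 constructs (edgeR adjusted p = 0.0350). ENSMUSG00000118401, for which the tables used give no symbol, was 132-fold higher with Drd2 alone over the joined reads, with the same direction in 5 of 5 constructs (edgeR adjusted p = 0.0174). Without SYFP2-10aa-H2Bmod-BC none of the 3 was called (edgeR adjusted p 0.118 for Penk, 0.296 for Lingo2 and 0.357 for ENSMUSG00000118401). Penk was called without each of the other 4 constructs, whereas Lingo2 was called without none of them, and ENSMUSG00000118401 lost its call without SYFP2-H2B-U7snRNAOPT-BC (0.128) or SYFP2-P2A-3XFLAG-H2B-SIRLOIN (0.113).

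Among the pathway markers, all 6 tested genes known for Drd1 neurons were above 0 (median log2 fold change 8.89, 0 called) and all 4 known for Drd2 neurons were below it (median -5.69, Penk called), against a median of 0.35 over all genes. Gpr6 was at -6.83 ± 1.06 (edgeR adjusted p = 0.0532) and Tac1 at 6.26 ± 1.32 (edgeR adjusted p = 0.488). Both were called in 5 alternatives: with DESeq2 (adjusted p = 8.48e-06 for Gpr6 and 0.0104 for Tac1), with the vector code (0.000136 and 0.0289), with at least 2 nuclei per sum (3.07e-06 and 2.21e-06), without the low-count filter and with the newer dispersion fit. Of the genes of the receptors' signalling, none was called between the kinds: 0 of 19 G protein and adenylyl cyclase genes, 0 of 17 cyclic AMP effectors and phosphodiesterases, 0 of 7 genes of adenosine metabolism and 0 of 3 of dopamine metabolism were called. Only 0.0342% of all 8783 genes were called, so counts of 0 in lists of this size say nothing particular about these genes.

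The balance of Drd1 and Drd2 nuclei varied between constructs. Over the 12 constructs with at least 5 striatal projection nuclei, 54.8% ± 27.7 of them had Drd1 reads (SD, from 0 to 100%) and 33.9% ± 23.6 had Drd2 reads (from 0 to 85.7%). More nuclei had Drd1 than Drd2 in 10 of 12 constructs. The exceptions were 3xsmOPT-SYFP2-H2B-BC, with 0 of 7 nuclei for Drd1 and 6 of 7 for Drd2, and U7snRNAOPT-SYFP2-H2B-BC, with 2 and 6 of 9. BORG-SYFP2-H2B-BC was the reverse, with 6 of 6 and 0. The 3 constructs with 37 to 41 such nuclei lay closer together, at 43.9 to 60% for Drd1 and 25 to 45.9% for Drd2.

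**Figure D5:**
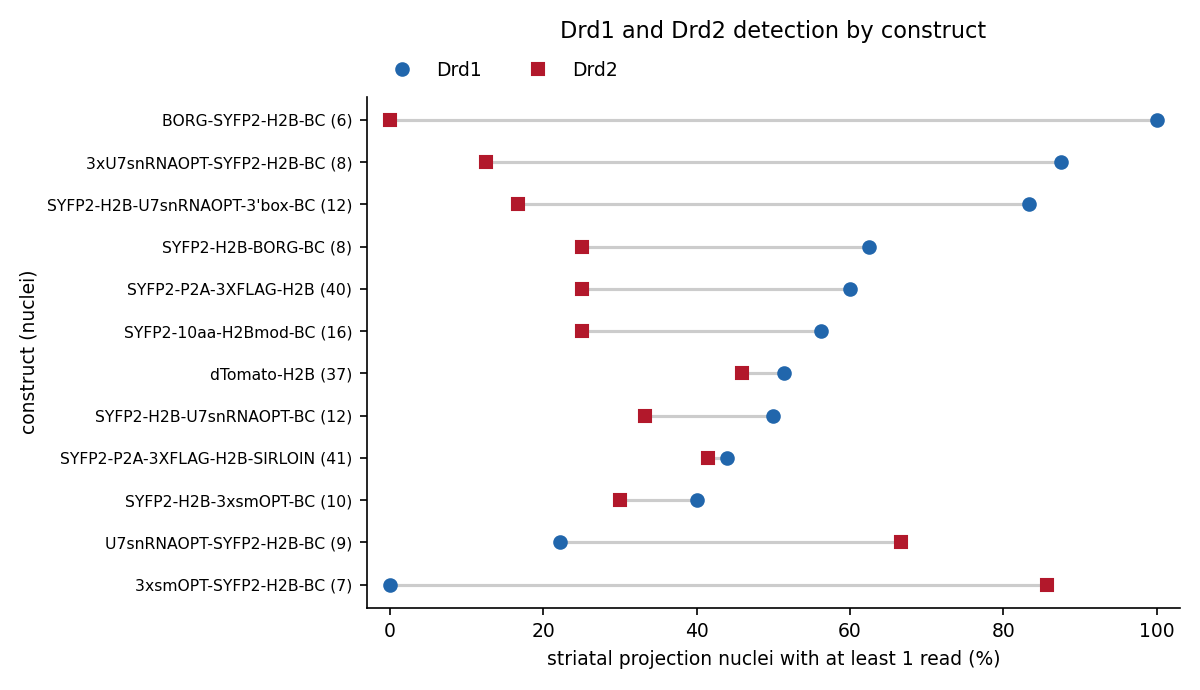
Percent of striatal projection nuclei with Drd1 reads (circles) and with Drd2 reads (squares) in each of the 12 constructs with at least 5 such nuclei, whose number is in brackets. Drd1 is above Drd2 in 10 of 12, and the extremes, 0 and 100%, are constructs with 6 or 7 nuclei.

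The same shares also varied between library pools. In pool S40325, 47.5% (39.1 to 56.1) of 141 striatal projection nuclei had Drd1 reads, 41.1% (32.9 to 49.7) Drd2 reads and 29.1% (21.7 to 37.3) Adora2a reads. In pool S40327 the shares of 73 nuclei were 65.8% (53.7 to 76.5), 23.3% (14.2 to 34.6) and 11% (4.85 to 20.5). Constructs were spread unevenly over the pools: of 15 constructs with such nuclei 5 had them in both pools, and 2 had at least 4 in each. In SYFP2-10aa-H2Bmod-BC, Drd1 had reads in 7 of 12 nuclei of pool S40325 and 2 of 4 of pool S40327, and in U7snRNAOPT-SYFP2-H2B-BC in 1 of 4 and 1 of 5. Whether pool or construct sets the shares was not tested.

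Position of the RNA element was the condition that could be compared within the striatal projection class, with 4 constructs that carry it after SYFP2-H2B and 4 that carry it before. Drd1 was at 247, 326, 352 and 695 CPM with the element after and at 0, 68.8, 650 and 1425 CPM with it before, and the groups overlapped. Drd2 was at 9.17, 65, 66.7 and 160 CPM after and at 0, 23.7, 124 and 266 CPM before. The log2 fold changes after against before were -0.29 ± 1.14 for Drd1, -0.22 ± 1.33 for Drd2, 2.33 ± 2.20 for Adora1 and 1.14 ± 1.99 for Adora2a, all with an edgeR adjusted p of 1. Of 8160 genes 0 were called (0.00%), with 130 at an unadjusted p under 0.05, 33 called by DESeq2 and 36 by edgeR without the low-count filter. Of the nuclei with the element after, 39 of 42 were from pool S40327, against 19 of 30 with it before, and the part of the pool was not tested.

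The other genes of the 2 signalling pathways were followed through lists chosen by name. Among G proteins, their regulators and adenylyl cyclases, 11 of 23 were called higher and 0 lower in striatal projection nuclei against the mean of the other 5 classes (median log2 fold change 2.80, against 1.129 over all genes, of which 16% were called higher and 0.492% lower). They included Rgs7bp, an anchor of RGS proteins (3.95 ± 0.50), the cyclase gene Adcy5 (7.74 ± 1.02), Gnal, which encodes the Golf subunit through which Drd1 and Adora2a signal (5.30 ± 0.84), and its chaperone Ric8b (5.36 ± 0.91). Against Sst, Pvalb and excitatory nuclei alone, 7 were called higher and 3 lower (median 0.46, against 0.03 over all genes, of which 4.38% were called higher and 2.35% lower). In that contrast Adcy5 was at 5.37 ± 0.69, Gnal at 2.92 ± 0.57 and Rgs14, a regulator that also binds Ras-family proteins, at 7.19 ± 1.126. Called lower were the cyclase genes Adcy8 (-9.01 ± 1.35) and Adcy1 (-2.43 ± 0.64) and the G protein subunit gene Gng2 (-7.11 ± 1.56). Adcy1 changed sign between the contrasts, since it was called higher against all 5 classes (2.40 ± 0.74). The calls of Rgs7bp, Gnal, Ric8b, Adcy8, Adcy1 and Gng2 were lost without pool S40327, where no Aqp4 or Mog sum was left, and those of Gnal, Rgs14 and Adcy1 against the neurons without pool S40325. In the contrast with the mean of all other classes left in the fit, 3 list genes were called higher without pool S40327 and 6 without pool S40325. Over all genes, 127 of 12877 and 473 of 16846 were called higher in these settings, against 2645 of 16480 in the main fit.

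Of the cyclic AMP effectors and phosphodiesterases, 13 of 18 were called higher and 0 lower against all 5 classes (median 3.49, with 16% and 0.492% of all genes), and 10 higher and 1 lower against the neurons (median 2.11, with 4.38% and 2.35% of all genes). The phosphodiesterase genes Pde10a (5.22 ± 0.44) and Pde1b (7.90 ± 0.86), Arpp21, a cyclic AMP-regulated phosphoprotein (8.86 ± 0.83), and the calcineurin subunit gene Ppp3ca (2.85 ± 0.30) had the smallest p against all 5 classes. Prkar1b, a regulatory subunit of protein kinase A, was called higher against all 5 classes (3.04 ± 0.72) and lower against the neurons (-1.89 ± 0.57), a call that was lost without any 1 of 4 constructs. Several of these genes, Pde10a and Adcy5 among them, are also in the marker list of the class.

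Genes that make, carry or break down the ligands were followed in the same way. Of 12 tested genes of adenosine metabolism and transport, 2 were called higher, a share near the 16% of all genes: Nt5e, the ectonucleotidase that makes adenosine (5.74 ± 2.07, edgeR adjusted p = 0.0450), and the nucleoside transporter gene Slc29a1 (4.70 ± 0.90, edgeR adjusted p = 6.01e-05). Against the neurons alone Nt5e remained called (5.99 ± 1.70, edgeR adjusted p = 0.0172) and Slc29a1 did not (0.63 ± 0.64, edgeR adjusted p = 0.766). Without pool S40327 Nt5e was at 2.88 (edgeR adjusted p = 0.659) and Slc29a1 at -0.05 (edgeR adjusted p = 1). The Nt5e call against all 5 classes was also lost without 3xBORG-SYFP2-H2B-BC, 3xsmOPT-SYFP2-H2B-BC, BORG-SYFP2-H2B-BC, SYFP2-H2B-3xsmOPT-BC or SYFP2-H2B-BORG-BC (edgeR adjusted p 0.0509 to 0.0781). Of 6 tested genes of dopamine synthesis, transport and breakdown, 0 were called in either contrast (medians 0.71 and 0.50). Ddc and Maoa gave no usable test in the first. The smallest adjusted p by edgeR were 0.0575 for Maob, a monoamine oxidase, in the first contrast and 0.0795 for Ddc, the decarboxylase that makes dopamine, in the second. With DESeq2 and with no construct term both were called (adjusted p = 2.58e-06 and 0.0051 for Maob, 1.58e-07 and 0.000169 for Ddc), and Maob also without SYFP2-P2A-3XFLAG-H2B (0.0325) or U7snRNAOPT-SYFP2-H2B-BC (0.0378).

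The genes whose pattern over the 51 sums was most like that of each receptor were found by Pearson's r of log2(CPM + 1), given as a description of sums that share constructs, libraries and depth. For Drd2 they were Gm10535 (0.94), the chloride channel gene Ano2 (0.91) and the growth factor gene Tgfa (0.90). For Adora2a they were Drd2 itself (0.87), Gm10535 (0.83) and D430036J16Rik (0.82). For Drd1 the closest were Myh7, Isl1, a transcription factor of direct-pathway neurons, and Ebf1, at 0.65, 0.65 and 0.64. For Adora1 the closest, Ptcd2, reached 0.59, and the few sums with reads of Drd3 (2) and Drd5 (1) allow no such reading.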

How the data were processed

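The deposited values were counts of reads per gene and nucleus in 1 table of 32285 genes, of whose 2501 columns 904 belong to the series. The other 1597 were not used. The submitters' processing notes name STAR 2.7.2a and mm10 for the alignment, and how reads were counted is not given in the sources used here. Whole transcripts were read without molecular identifiers, so counts include amplified copies, and levels in CPM (reads of a gene over all gene reads, scaled to a fixed total) are not compared between genes. Gene IDs were matched to GENCODE M21, with 32158 matched and 127 not. No 2 columns held identical values.

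Nuclei with at least 1000 genes and 10000 reads were kept, 835 of 904. Classes were set by CPM: striatal projection nuclei had at least 20 of Rgs9 and less than 20 of Slc17a7, Sst nuclei at least 100 of Sst, Pvalb nuclei at least 20 of Pvalb and less than 100 of Sst, excitatory nuclei at least 50 of Slc17a7, and Aqp4 and Mog nuclei at least 20 of those genes. Nuclei in several classes were left out. The method sorts 1 nucleus per well and no doublet calling was run, so whether wells held RNA of more than 1 nucleus was not tested. The class genes were not tested. Nuclei are not replicates, so shares of nuclei are descriptions with no test. A read threshold of 1 defines detection.

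Counts were summed per construct and class (at least 5 nuclei, 3 for the kinds within the striatal projection class and 1 for the kinds within the excitatory class, where the planned 3 left no construct). The sums passed through filterByExpr and TMM scaling, and edgeR 4.0.16 (R 4.3.3) fitted them by quasi-likelihood, with construct as a block except for element position, and Benjamini-Hochberg adjustment over all genes at 0.05. The SE is the log2 fold change divided by the square root of F. DESeq2 1.42.0 was an alternative. The fits were tested on simulated counts. Figures and shares used Python 3.11.15, pandas 2.3.3, scipy 1.17.1 and matplotlib 3.10.9. Intervals are Clopper-Pearson at 95%, and a count of 0 was bounded by 3 counts.

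The receptors, gene lists and comparisons were chosen with earlier results of these data known. Named genes were the receptors, the 3 genes most like each, up to 4 genes with the smallest adjusted p per list, and all genes called between Drd1 and Drd2 nuclei. Adcy1, Gng2, Prkar1b and Maoa were named after their values were seen.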

Additional observations from a re-analysis of the deposited data

Results flagged for a closer look

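In 3 of 15 groups of 4 to 10 constructs, 1 construct lay far from the others. The cut-off used marks about 1 group in 20 only where values are normally distributed. These sums are few and several are at 0, so that rate does not hold here and no excess can be read from the count. Adora1 with the element before SYFP2-H2B was at 47.8 CPM in U7snRNAOPT-SYFP2-H2B-BC, and the next highest of the 4 constructs was at 2.32 CPM. Adora2a in the same group was at 93.9 CPM in 3xsmOPT-SYFP2-H2B-BC and next at 8.90 CPM. Among nuclei with Drd2 alone, Adora1 was at 185 CPM in SYFP2-P2A-3XFLAG-H2B-SIRLOIN and next at 38.4 CPM over 5 constructs.

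The 117 nuclei of no class entered no comparison and still held receptor reads above the 2.56% that a count of 0 would allow. Drd2 had reads in 17.9% of them, Adora1 in 9.40%, Drd1 in 4.27% and Drd5 in 3.42%.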

How the results depend on the processing

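Drd2 was called against the mean of the other 5 classes, and against the mean of Sst, Pvalb and excitatory nuclei, in every fit that gave a value. Without pool S40325 and within pool S40327 the fits gave no value for Drd2 against either mean. Adora2a against the 5 classes missed the threshold with DESeq2 (log2 fold change 8.457, adjusted p = 0.0982), without pool S40327 (10.44, edgeR adjusted p = 0.0799), with at least 10 nuclei per sum (10.51, edgeR adjusted p = 0.116) and within pool S40325 (11.21, edgeR adjusted p = 0.0694). Drd1 missed it with at least 10 nuclei per sum (4.368, edgeR adjusted p = 0.051) and within pool S40325 (4.705, edgeR adjusted p = 0.05). Without pool S40327, within pool S40325, with at least 10 nuclei per sum and with at least 2000 genes per nucleus, no Aqp4 or Mog sum was left, and both means were then of the same 3 neuron classes.

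Adora1, which was never called in the receptor comparisons of striatal projection nuclei, changed direction most often. Without pool S40325 it was at -0.3601 against the 5 classes, -2.171 against the mean of the 3 neuron classes, -1.456 against Pvalb and -1.151 against Sst nuclei. Within pool S40327 it was at -2.809 against that mean, -6.389 against Pvalb and -1.293 against Sst nuclei, and excitatory nuclei were at -5.643 against Pvalb and -0.548 against Sst nuclei. Against Sst nuclei it was also at -0.06745 without pool S40317, -0.06827 with no scaling beyond library size and -0.3546 with doubled class thresholds, and against excitatory nuclei at 0.0994 with at least 10 nuclei per sum. Between nuclei with Drd1 alone and Drd2 alone it was at -3.352 with the vector code in place of the construct. With single constructs left out in turn it ran from -0.6463 to 1.766 in that comparison, from -0.4062 to 0.9089 against Sst nuclei and from -0.2771 to 0.701 against the mean of the 3 neuron classes. Excitatory against Pvalb nuclei was called for Adora1 with DESeq2 (4.283, adjusted p = 0.016) and with at least 3 nuclei per sum (5.792, edgeR adjusted p = 0.0398). Drd1 against excitatory nuclei was at -0.7126 within pool S40327. With the kind of element as a term, position gave 2.467 for Drd1 and 0.7886 for Drd2, and with single constructs left out -0.6691 to 0.8424 and -1.056 to 0.871. The cause of these changes was not tested.

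Of the other named genes, Adcy1 against the 5 classes was at -2.729 without pool S40327, -2.583 with at least 10 nuclei per sum, -2.356 with at least 2000 genes per nucleus and -2.767 within pool S40325, and at 0.02782 against the neurons within pool S40327. Prkar1b was at -0.42, -1.266, -2.275 and -0.3587 in the first 4 of these settings. Slc29a1 was at -0.05439 without pool S40327 in both contrasts.

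The 2726 genes called against the 5 classes became 5619 with DESeq2, 519 without pool S40325, 168 without pool S40327, 352 with at least 10 nuclei per sum, 6362 with no construct term, 1211 with at least 2000 genes per nucleus, 151 within pool S40325 and 197 within pool S40327, and 1492 to 2977 with single constructs left out. The lowest was without SYFP2-H2B-3xsmOPT-BC. The share of called genes that were higher was 97%, and fell to 86.7% with DESeq2, 75.6% without pool S40327, 75% with at least 10 nuclei per sum, 58% with at least 2000 genes per nucleus and 76.8% within pool S40325. The 3 genes called between nuclei with Drd1 alone and Drd2 alone became 253 with DESeq2, 17 without the low-count filter, 1 without pool S40327, 5 with the vector code, 9 with the newer dispersion fit of edgeR (legacy off), 7 with at least 2 nuclei per sum, and 0 to 2 with single constructs left out. The 5 genes called between Foxp2 and Cux2 nuclei became 175 with DESeq2, 8 with RLE scaling, 0 without pool S40317, 2 without pool S40325 and 15 with the vector code, and 2 to 5 with single constructs left out. For position, 0 genes became 33 with DESeq2 and 36 without the low-count filter, and 0 to 2 with single constructs left out.

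No paired analysis was possible because the replicate numbers in the titles count nuclei within a construct and tie no nuclei of different constructs to each other. The construct, not that number, was the block in the comparisons of classes and of Drd1 and Drd2 nuclei. Without pool S40325 the comparison of nuclei with Drd1 alone and Drd2 alone could not be fitted, nor position without pool S40327, nor the classes within pool S40317. The legacy setting, the minimum of 2 nuclei, the minimum of 1 nucleus for the excitatory kinds and the mean over 3 neuron classes were chosen after seeing the data. Sums hold as few as 5 nuclei of a class, 4 nuclei with Drd1 or Drd2 alone and 1 nucleus of the excitatory kinds, and a class without reads of a receptor limits its level only to 3 counts.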

Other observations

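The 92 nuclei that met several classes were left out of every comparison, and 38 of them met the striatal projection and Sst rules alone. Drd1 had reads in 20.7% of the 92, Adora1 in 14.1%, and Drd2 and Adora2a in 8.70% each. They held 11.8% of all Drd1 reads of the kept nuclei and 4.14% of all Drd2 reads. Of the 25 with Drd1 or Drd2 reads, 2 had both. Adora3, another adenosine receptor that couples to inhibitory G proteins, had 123 reads in 1 striatal projection nucleus, which also had 41 Drd2 reads and 0 Drd1 reads, and 1 read in each of 2 other nuclei. Its gene overlaps the protein-coding gene Tmigd3 on the same strand, so reads of Tmigd3 could count for Adora3.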
